A study of Homo sapiens with 4 samples.

Results

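The genes described here are 10 members of the ETS transcription factor family, ETV1, ETV4, ETV5, ETV6, ETS1, ETS2, ELF1, ELF3, EHF and ELK1, out of 22411 genes that the array measured by a cluster assigned to that gene alone. They were selected on their signals in the comparison of CDK8 siRNA with control siRNA, so their levels, differences and any calls are given as a description, with no p-values. Each member had a single transcript cluster, and all 10 had enough mean signal to be among the 13956 genes tested. RNA came from HCT116, an established human colon cancer cell line. The CDK8 siRNA group comprised 2 arrays of cells given CDK8 siRNA at 50 nM and harvested at 48 h, CDK8 being the kinase of the Mediator kinase module. The control siRNA group comprised 2 arrays of cells given the control siRNA at the same concentration and time, whose sequence the labels do not give. All 4 arrays shared the cell line, the transfection reagent and the time point. Loss of CDK8 and other effects of the single CDK8 siRNA group cannot be told apart. The labels call the replicates biological without naming separate cultures, and the p-values reflect only how far these samples spread, which may be technical.

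ETS factors share a winged helix-turn-helix domain that binds DNA around a GGAA core, and they differ in the partners and signals that act on them. Several are phosphorylated by ERK at the end of the RAS-RAF-MEK cascade, among them ETS1, ETS2, ELK1 and the PEA3 group of ETV1, ETV4 and ETV5. Transcription of the PEA3 group also follows ERK activity, through relief of the repressor Capicua. ELF3 and EHF are the epithelial members of the family, and ETV6 is mainly a repressor.

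CDK8 had signals of 7.25 and 7.45 (log2) on the CDK8 siRNA arrays, against 9.99 and 10.04 on the control siRNA arrays. It fell by 2.67 ± 0.09 (log2 difference ± SE, limma adjusted p = 4.43e-05, n = 2 per group). CDK19, its paralog, had 7.52 and 7.35 with CDK8 siRNA and 8.5 and 8.57 with control siRNA and fell by 1.10 ± 0.09 (limma adjusted p = 3.29e-04). The array medians were 4.32 and 4.31 with CDK8 siRNA and 4.24 on either control siRNA array. Of 11 colon epithelial markers 5 were tested and 6, CDX1 and CDX2 (named outside the rule) among them, lay under the filter level of 4.28. EPCAM, an epithelial adhesion molecule, had 12.91 and 12.95 with CDK8 siRNA and 12.23 and 12.33 with control siRNA, a rise of 0.65 ± 0.08 (limma adjusted p = 0.00118). Of the 5 tested, 3 rose and 1 fell. The only fall, that of the keratin gene KRT18 (-0.34 ± 0.09, limma adjusted p = 0.0304), did not hold with any array left out or without the filter. The rise of KRT19 (0.43 ± 0.12, limma adjusted p = 0.0317) did not hold without CDK8 siRNA replicate 1 or either control array, without the filter, with centred arrays or with the replicate block. Blood cell markers gave 1 tested gene of 8, CD68 (1.36 ± 0.11, limma adjusted p = 3.39e-04), and their summed linear signal ranged from 350 to 390 with CDK8 siRNA and from 190 to 207 with control siRNA. CD68, with 8.0 and 8.17 with CDK8 siRNA and 6.84 and 6.61 with control siRNA, was the only one of them tested, and the other 7, under the filter level, differed by -0.05 (HBB) to 0.34 (CD3E), also outside the rule. The pan-leukocyte marker PTPRC, named outside the rule, lay at 3.53 and 3.53 with CDK8 siRNA and at 3.49 and 3.41 with control siRNA. Endothelial and fibroblast markers had 1 tested gene each, ESAM at 0.28 ± 0.07 (limma adjusted p = 0.0194) and COL1A1 at 0.26 ± 0.07 (limma adjusted p = 0.0287), and neither call held with an array left out or with centred arrays. The COL1A1 call was also absent with quantile normalization and with the replicate block. The fibroblast gene DCN, which the naming rule does not cover and which was too dim for the filter, had 4.19 and 4.25 with CDK8 siRNA and 3.65 and 3.61 with control siRNA, and was called higher without the filter (0.59 ± 0.06, limma adjusted p = 0.00276). The endothelial and fibroblast sums ranged from 122 to 125 and from 105 to 106 with CDK8 siRNA, and from 111 to 112 and from 90.4 to 92.3 with control siRNA. All 4 arrays came from the HCT116 line, so these markers describe transcript levels in that line. Their relation to the ETS values was not tested.

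The PEA3 group split by member. ETV1, an activator that drives growth in several tumour types, had signals of 5.17 and 5.40 on the CDK8 siRNA arrays and 8.6 and 8.46 on the control siRNA arrays. Both CDK8 siRNA arrays lay far below both control arrays, yet above the filter level. The log2 difference was -3.25 ± 0.11 (SE, n = 2 per group), or 9.48-fold lower, the ninth most negative of 6919 negative differences among tested genes and larger than that of CDK8 itself. In bulk RNA, fewer cells with a transcript and less transcript per cell cannot be told apart. ETV4, the founding PEA3 factor, had 5.63 and 5.48 with CDK8 siRNA and 6.43 and 6.28 with control siRNA, a difference of -0.80 ± 0.09 with no overlap between the groups. ETV5 had 8.04 and 7.95 with CDK8 siRNA and 8.04 and 8.11 with control siRNA, and its groups overlapped (-0.08 ± 0.08). Within this subfamily the differences thus ranged from -3.25 to -0.08, in the order ETV1, ETV4, ETV5.

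**Figure D1:**
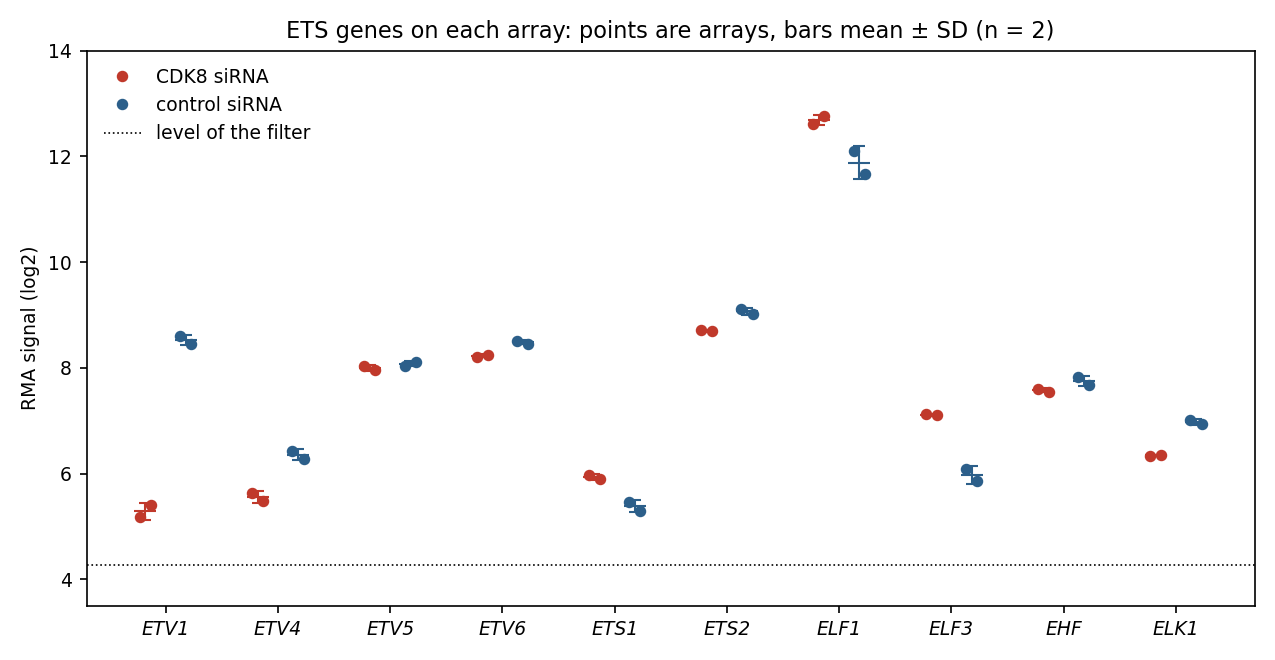
RMA signal (log2) of the 10 ETS genes on each array, with CDK8 siRNA in red to the left of control siRNA in blue, points for arrays, bars for mean ± SD (n = 2 per group) and a dotted line at the filter level of 4.28. ETV1 shows the widest gap, 5.17 and 5.40 with CDK8 siRNA against 8.6 and 8.46 with control siRNA, and ETV5 shows overlapping groups. Heights of different genes are not comparable, since each has its own probes.

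The start of ETV1 is shown because, of the members searched, it alone had a match to TGAATGGA or TGAATGAA. These are the letter forms of the Capicua octamer that were searched, and no other form was. RefSeq promoter windows (250 bases before to 50 after a start site, GRCh38.p14) were found for 7 of the 10 members, not for ETV4, ETV5 and ETS1, with 16 windows in all and 6 for ETV1. The window chr7:13991376-13991675, on the minus strand, holds TGAATGGA on the strand of the gene, in capitals, with its first base at position -125 from the start site. It does not overlap a match of another motif searched.
ETV1: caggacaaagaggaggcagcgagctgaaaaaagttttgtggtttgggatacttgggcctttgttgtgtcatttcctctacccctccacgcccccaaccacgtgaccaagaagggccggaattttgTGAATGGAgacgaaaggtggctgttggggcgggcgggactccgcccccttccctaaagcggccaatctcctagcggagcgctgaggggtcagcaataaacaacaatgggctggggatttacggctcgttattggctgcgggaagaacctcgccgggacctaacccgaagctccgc
The letters TGAATGGA were found, on either strand, in 1.03% of all 35116 promoter windows, and the other 5 ETV1 windows did not hold them. The second form searched, TGAATGAA, was found in 1.65% of windows and in no member window. Among other family genes, SPDEF held TGAATGAA. A match describes the letters in the window and does not show a bound site.

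Of the epithelial members ELF3 was higher with CDK8 siRNA, while EHF was called in neither direction. ELF3, which is restricted to epithelia and induced by inflammatory signals, had 7.12 and 7.10 on the CDK8 siRNA arrays against 6.09 and 5.85 on the control siRNA arrays. Its log2 difference of 1.14 ± 0.10, or 2.20-fold higher, was the largest positive one among the members, and 7033 tested genes had a positive difference, of which ELF3 ranked 545. EHF, its close relative, had 7.60 and 7.55 with CDK8 siRNA and 7.82 and 7.68 with control siRNA. The groups of EHF did not overlap, with a difference of -0.18 ± 0.08, which was not called. The third gene of this subfamily, ELF5, lay under the filter level with 4.27 and 4.23 with CDK8 siRNA and 4.12 and 4.18 with control siRNA.

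The start of ELF3, the member with the largest positive difference, is shown because its window holds a match to the κB motif, the binding sequence of NF-κB. This motif was added to the search after the promoters had been read. The window chr1:202010337-202010636, on the plus strand (RefSeq, GRCh38.p14), carries the match in capitals on the strand opposite to the gene, with its first base at position -88, and no other motif searched overlaps it.
ELF3: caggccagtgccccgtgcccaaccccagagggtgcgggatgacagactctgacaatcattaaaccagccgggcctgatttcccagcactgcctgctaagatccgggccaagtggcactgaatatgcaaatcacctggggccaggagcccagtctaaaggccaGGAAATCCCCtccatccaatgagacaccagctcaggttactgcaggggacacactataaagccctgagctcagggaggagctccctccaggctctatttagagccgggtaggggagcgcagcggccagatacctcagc
The κB motif was present on either strand in 5.91% of all promoter windows, and in 7.09% of genes with a window. Of the 7 members with a window, ETS2 was the only other with a match, at position 27 after its start. The 2 members differed in direction, ELF3 at 1.14 and ETS2 at -0.37 (log2 difference).

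ELF1, a broadly expressed activator of the ELF subfamily, had 12.62 and 12.76 on the CDK8 siRNA arrays and 12.10 and 11.67 on the control siRNA arrays. Its difference was 0.81 ± 0.15, the largest error among the members, and its control arrays had an SD of 0.304. With 1 array left out the difference lay between 0.59 and 1.02. ELF4, a family gene outside the 10, had 7.76 on either CDK8 siRNA array and 7.27 and 7.30 on the control siRNA arrays. It rose 1.39-fold (0.475 ± 0.069, limma adjusted p = 0.00267). ELF2, the third of the subfamily, stood at 0.17 ± 0.09 (limma adjusted p = 0.172), with 8.10 and 8.13 with CDK8 siRNA against 8.04 and 7.85 with control siRNA. 

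The founding pair, whose products are phosphorylated by ERK at a shared threonine, differed in direction. ETS1 had 5.97 and 5.89 with CDK8 siRNA and 5.47 and 5.30 with control siRNA (0.55 ± 0.09). ETS2 had 8.71 and 8.69 with CDK8 siRNA and 9.12 and 9.02 with control siRNA (-0.37 ± 0.07). In neither gene did the groups overlap. ETV6, the repressor that dimerises through its pointed domain and is a frequent fusion partner in leukaemia, had 8.21 and 8.25 with CDK8 siRNA against 8.51 and 8.46 with control siRNA. That is a difference of -0.26 ± 0.07 without overlap. Its relative ETV7 lay under the filter level with a difference of 0.09.

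ELK1, the ternary complex factor that joins serum response factor at immediate early promoters, had 6.34 and 6.35 on the CDK8 siRNA arrays and 7.02 and 6.93 on the control siRNA arrays. The difference of -0.63 ± 0.07 amounts to 1.55-fold lower, and the groups did not overlap. ELK3, a ternary complex factor that represses until phosphorylated by ERK, is outside the 10 and fell 1.65-fold (-0.72 ± 0.13, limma adjusted p = 0.00677). Its signals were 8.92 and 9.30 with CDK8 siRNA and 9.80 and 9.86 with control siRNA. The ELK3 call did not hold with either control array left out. Its difference there was -0.75 without replicate 1 and -0.69 without replicate 2. ELK4, the third of the group, shares its transcript cluster with another gene and its level was not analysed here.

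Of the 10 members, 3 were called higher, 5 lower and 2 (ETV5 and EHF) in neither direction, and 9 had groups that did not overlap. Over all tested genes 23.1% were called higher, 26.4% lower and 49.5% in either direction, and 74.7% had groups that did not overlap. The members were chosen from this comparison, so their calls only describe where they lie under the threshold used for all genes, test nothing, and are not read against these shares. The median difference of the members, likewise only a description, was -0.22. It was 0.03 for the 8 tested family genes that are not members and 0.005 over all tested genes. With 1 array left out, members called higher numbered 3 where control siRNA replicate 1 was dropped and 1 where CDK8 siRNA replicate 1, CDK8 siRNA replicate 2 or control siRNA replicate 2 was dropped. Members called lower numbered 3 in each of these 4 cases. The sign of every member's difference was the same under each alternative that gave a value.

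**Figure D2:**
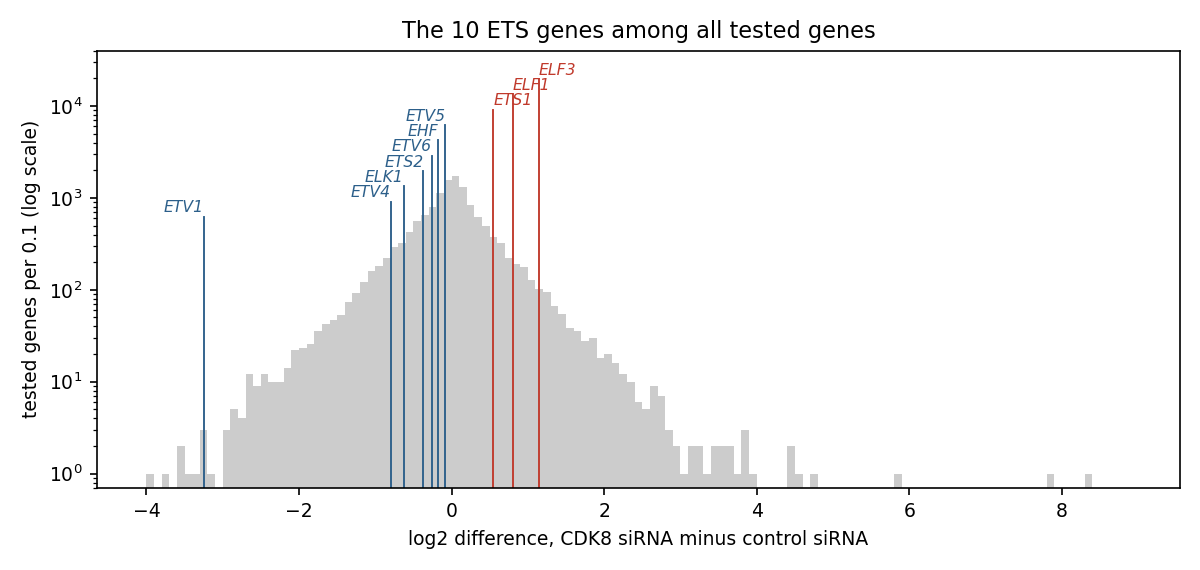
Histogram of the log2 difference (CDK8 siRNA minus control siRNA, bins of 0.1, logarithmic count axis) over the 13956 tested genes, with a line at each of the 10 ETS genes, red for positive and blue for negative differences; line heights only keep the names apart. ETV1 at -3.25 stands in the far left tail, ELF3 at 1.14 is the furthest right, and ETV5 at -0.08 lies near the centre.

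The human family has 28 genes, of which 27 had a transcript cluster of their own and 18 were tested. Of these 18, 4 were higher with CDK8 siRNA (ETS1, ELF1, ELF3 and ELF4) and 7 were lower (ETV1, ETV4, ETV6, ETS2, ELK1, ELK3 and ERF), while 7 did not pass. Of these 11 calls 8 are of the members chosen from this comparison, so the family count is no test. Among the 8 tested family genes that are not members 1 rose (12.5%), 2 fell (25%) and 5 did not pass. ERF, a repressor that ERK drives out of the nucleus, had 6.34 and 6.30 with CDK8 siRNA and 6.68 and 6.52 with control siRNA and fell 1.21-fold (-0.28 ± 0.08, limma adjusted p = 0.0375). The ERF call did not hold with an array left out (adjusted p = 0.0702 to 0.174), without the filter (adjusted p = 0.0559) or with the replicate block (adjusted p = 0.0535). Family genes that did not pass included GABPA, a regulator of mitochondrial and housekeeping promoters (-0.06 ± 0.13, limma adjusted p = 0.751), and ETV3, a repressor (0.19 ± 0.09, limma adjusted p = 0.128). SPDEF, of secretory epithelia, and ETV2, of blood vessel development, stood at -0.02 ± 0.08 and 0.08 ± 0.07. Both were dim, with means over the 4 arrays of 4.54 and 4.28, close to the filter level of 4.28. With 1 array left out the family counts were 2 higher and 4 lower without CDK8 siRNA replicate 1 or 2, 4 and 3 without control siRNA replicate 1, and 2 and 3 without control siRNA replicate 2.

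The other 9 family genes, most of them known from other lineages, lay under the filter level on average. ERG and FLI1, of endothelium and blood, had means over the 4 arrays of 3.54 and 3.75, and FEV, of serotonergic neurons, had 3.85. SPI1, SPIB and SPIC, of myeloid and lymphoid cells, had 3.81, 3.06 and 3.41, and ETV3L, the relative of ETV3, had 3.73. In limma without the filter, 0 of the 9 family genes under it were called, and 0 had an unadjusted p under 0.05.

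**Figure D3:**
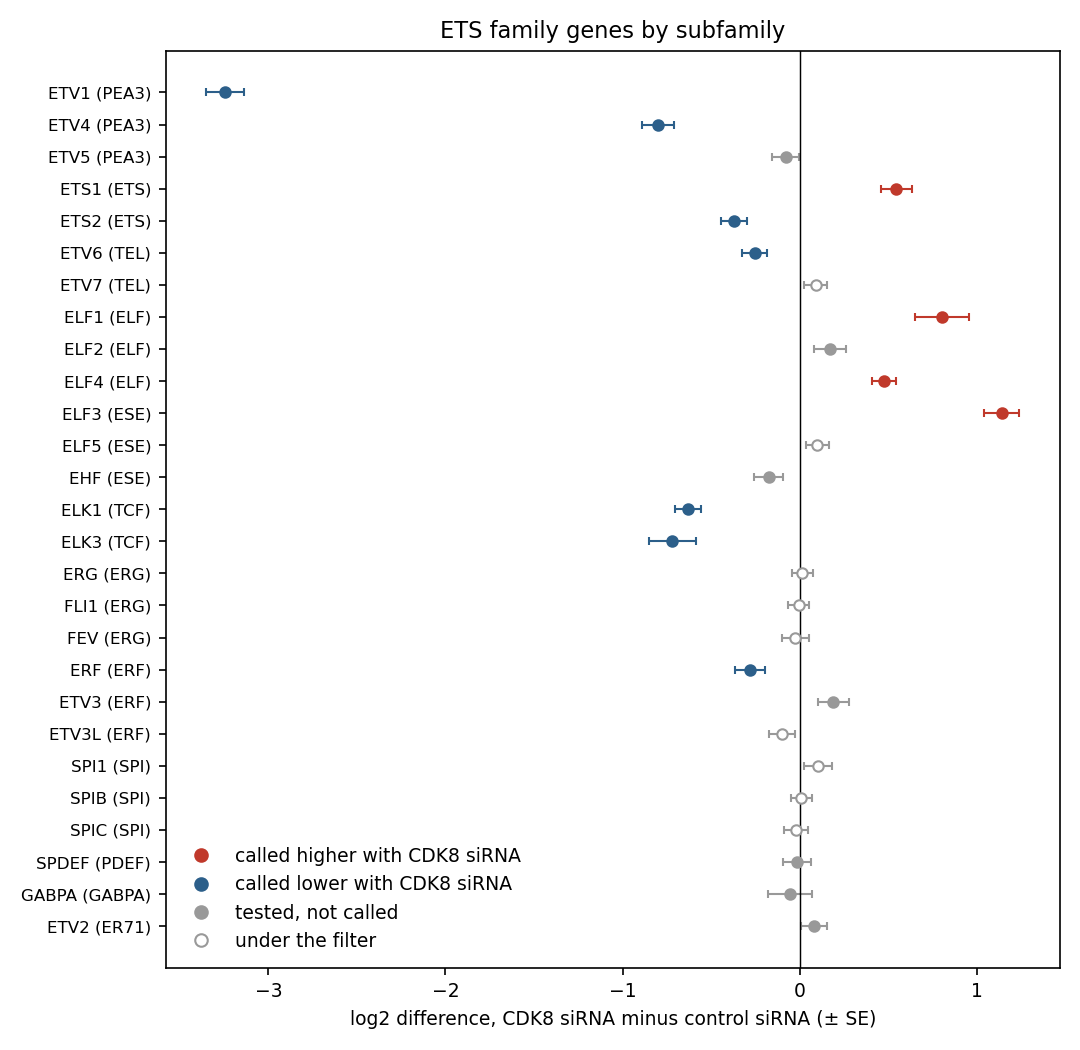
Log2 difference (CDK8 siRNA minus control siRNA, ± SE, n = 2 per group) of 27 ETS family genes, each with its subfamily in brackets, red where called higher, blue where called lower, grey where not called and open where under the filter level. The 7 genes called lower span the PEA3, ETS, TEL, TCF and ERF subfamilies, led by ETV1 at -3.25, and the 4 called higher lie in the ETS, ELF and ESE subfamilies, led by ELF3 at 1.14.

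The gene lists linked to ETS factors are set beside the same background, 23.1% called higher and 26.4% lower over all tested genes. Shares called higher and lower were 44.4% and 22.2% of the partners, 27.3% and 36.4% of the repression and turnover genes, 25% and 37.5% of the RAS-ERK cascade, and 42.9% and 35.7% of the ERK output genes. They were 90% and 10% of the serum response factor and ELK targets, 50% and 16.7% of the PEA3 linked genes, 50% and 0% of the epithelial ETS linked genes, and 33.3% and 33.3% of the GABPA linked genes. With 6 to 16 tested genes a list, 1 gene moves a share by several percentage points. The lists were chosen with earlier results of these data known, so their shares are a description and test nothing.

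Of 9 tested partners and cofactors of ETS factors 4 rose, 2 fell and 3 did not pass (median 0.18). JUN, a subunit of the AP-1 pair that binds beside many ETS factors, had 7.45 and 7.49 with CDK8 siRNA and 5.70 and 5.69 with control siRNA and rose 3.42-fold (1.78 ± 0.07, limma adjusted p = 5.58e-05). FOS, its AP-1 partner, rose 1.56-fold (0.64 ± 0.08, limma adjusted p = 0.00127). GABPB2, which pairs with GABPA, had 5.59 and 5.46 with CDK8 siRNA against 7.19 and 7.13 with control siRNA and fell 3.11-fold (-1.64 ± 0.08, limma adjusted p = 8.75e-05). MRTFB, a coactivator that competes with ELK factors for serum response factor, fell 2.13-fold (-1.09 ± 0.10, limma adjusted p = 5.29e-04). Its paralog MRTFA and the gene of serum response factor, SRF, named outside the rule, rose by 0.44 ± 0.07 (limma adjusted p = 0.00448) and 0.29 ± 0.08 (limma adjusted p = 0.0332). The 4 rises became 2 without control siRNA replicate 1 or replicate 2.

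Of 11 genes of ETS repression and turnover 3 rose, 4 fell and 4 did not pass (median -0.18). CIC, which encodes Capicua and was named outside the rule, had 5.49 and 5.50 with CDK8 siRNA against 5.55 and 5.59 with control siRNA (-0.08 ± 0.07, limma adjusted p = 0.420). ATXN1, a partner that stabilises Capicua, rose 1.58-fold (0.66 ± 0.08, limma adjusted p = 0.00126). DET1, an adaptor of the COP1 ubiquitin ligase that degrades PEA3 and ETS proteins, fell 2.51-fold, with 4.71 and 4.57 with CDK8 siRNA against 5.90 and 6.03 with control siRNA (-1.33 ± 0.09, limma adjusted p = 2.01e-04). COP1 itself, named outside the rule, stood at 0.09 ± 0.07 (limma adjusted p = 0.344). The Tribbles genes, whose pseudokinase products bring substrates to COP1, differed in direction. TRIB2 fell 2.82-fold (-1.50 ± 0.10, limma adjusted p = 1.85e-04) and TRIB1 rose 1.37-fold (0.46 ± 0.07, limma adjusted p = 0.00331). The TRIB1 call did not hold with control siRNA replicate 1 or replicate 2 left out, where its difference was 0.455 in either case. Centred arrays gave 3 rises and 6 falls in this list, and fewer of its genes were called with any array left out.

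Upstream, the 16 tested genes of the receptor, RAS and ERK cascade gave 4 rises, 6 falls and 6 that did not pass, with a median of -0.03. PTPN11, the phosphatase SHP2 that relays receptor signals to RAS, had 12.53 and 12.61 with CDK8 siRNA and 13.69 and 13.63 with control siRNA and fell 2.13-fold (-1.09 ± 0.07, limma adjusted p = 2.12e-04). SOS2, a RAS exchange factor, fell 1.59-fold (-0.67 ± 0.11, limma adjusted p = 0.00377), and RPS6KA1, a kinase downstream of ERK, fell 1.42-fold (-0.51 ± 0.07, limma adjusted p = 0.00270). NF1, which switches RAS off, rose 1.69-fold (0.76 ± 0.13, limma adjusted p = 0.00474). These counts rested on all 4 arrays. With CDK8 siRNA replicate 1 dropped there were 1 rise and 2 falls, with CDK8 siRNA replicate 2 dropped 1 and 3, and with either control array dropped 0 and 1. Centred arrays gave 2 rises. Calls were lost without either control array for SOS2 (adjusted p = 0.0632 and 0.0865), RPS6KA1 (adjusted p = 0.0531 and 0.0542) and NF1 (adjusted p = 0.106 and 0.0806), and also without CDK8 siRNA replicate 1 for SOS2 (adjusted p = 0.0518) and, just past the threshold, without CDK8 siRNA replicate 2 for NF1.

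The 14 genes that report ERK output, all tested and none of them an ETS gene, gave 6 rises, 5 falls and 3 that did not pass. DUSP6, the cytoplasmic ERK phosphatase, had 7.97 and 7.55 with CDK8 siRNA against 10.58 and 10.91 with control siRNA and fell 7.92-fold (-2.99 ± 0.17, limma adjusted p = 1.36e-04). SPRY4, a Sprouty inhibitor of the cascade, fell 2.74-fold (-1.46 ± 0.09, limma adjusted p = 1.74e-04). DUSP5, the nuclear ERK phosphatase, had 11.42 and 11.07 with CDK8 siRNA against 8.97 and 8.89 with control siRNA and rose 4.98-fold (2.32 ± 0.13, limma adjusted p = 1.19e-04). EPHA2, an ephrin receptor, rose 3.49-fold (1.81 ± 0.11, limma adjusted p = 1.53e-04). Centred arrays gave 6 rises and 7 falls, so the balance of directions in this list depended on the normalization. With any array left out fewer of the 14 genes were called.

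Of 10 tested targets of serum response factor and ELK factors 9 rose and 1 fell, with a median of 0.95. The 9 rises became 8 with centred arrays and 7 with the replicate block, and were fewer with any array left out. A stricter filter, under which dimmer genes such as FOS were not tested, gave 6. CCN1, a matricellular protein, had 9.30 and 9.11 with CDK8 siRNA and 5.38 and 5.31 with control siRNA (14.5-fold higher, 3.86 ± 0.09, limma adjusted p = 3.29e-05). JUNB, an AP-1 gene, rose 5.05-fold (2.34 ± 0.16, limma adjusted p = 2.19e-04), MCL1, an antiapoptotic gene, 2.72-fold (1.45 ± 0.07, limma adjusted p = 8.21e-05) and CCN2, the relative of CCN1, 2.49-fold (1.32 ± 0.09, limma adjusted p = 2.36e-04). The fall was that of EGR1, an immediate early zinc finger factor named outside the rule, with 9.32 and 9.40 with CDK8 siRNA against 9.78 and 10.12 with control siRNA (-0.59 ± 0.12, limma adjusted p = 0.0109). It was lost without either CDK8 siRNA array and without control siRNA replicate 2. CCN1 and CCN2 are also known targets of YAP, and 2 genes of the list, FOS and SRF, stand in the list of partners as well.

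Of 13 genes linked to PEA3 factors 7, mostly matrix metalloproteinases, lay under the filter level, leaving 6, of which 3 were higher, 1 was lower and 2 passed in neither direction. PLAUR and PLAU, the urokinase receptor and its protease, rose 5.84-fold (2.55 ± 0.11, limma adjusted p = 7.05e-05) and 3.36-fold (1.75 ± 0.11, limma adjusted p = 1.67e-04). PLAUR had 9.81 and 9.65 with CDK8 siRNA against 7.31 and 7.06 with control siRNA. MMP14, a membrane metalloproteinase, fell 1.62-fold (-0.70 ± 0.07, limma adjusted p = 8.25e-04), and SNAI2, a repressor of epithelial genes, rose by 0.47 ± 0.13 (limma adjusted p = 0.0277). The SNAI2 call did not hold without CDK8 siRNA replicate 2 (adjusted p = 0.102), control siRNA replicate 1 (adjusted p = 0.239), control siRNA replicate 2 (adjusted p = 0.174), the filter (adjusted p = 0.0548), or with centred arrays (adjusted p = 0.0538). Falls numbered 0 with the filter at 6.17, and 2 with quantile normalization, with centred arrays and with a trend in eBayes.

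Among 10 tested genes linked to ELF3 and EHF in epithelia 5 rose, 0 fell and 5 did not pass, with a median of 0.24, and the 5 rises became 3 with any array left out or with the filter at 6.17. By unadjusted p under 0.05 in limma as well, 0 fell. CCL20, a chemokine, had 12.55 and 13.50 with CDK8 siRNA against 4.84 and 5.57 with control siRNA (226-fold higher, 7.82 ± 0.36, limma adjusted p = 7.89e-05). CDH1, the epithelial cadherin, had 10.06 and 9.90 with CDK8 siRNA against 7.02 and 7.28 with control siRNA (7.11-fold higher, 2.83 ± 0.11, limma adjusted p = 6.10e-05), and CLDN7, a claudin of tight junctions, rose 2.20-fold (1.14 ± 0.11, limma adjusted p = 5.73e-04). SPRR1A, a cornified envelope gene, rose by 0.33 ± 0.08 (limma adjusted p = 0.0171), which did not hold with an array left out (adjusted p = 0.0599 to 0.108). CDH1 also stands among the colon epithelial markers.

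The 9 tested genes linked to GABPA gave 3 rises, 3 falls and 3 that did not pass. SKP2, the ubiquitin ligase subunit, had 8.69 and 8.58 with CDK8 siRNA against 12.05 and 11.75 with control siRNA (-3.27 ± 0.12, 9.61-fold lower, limma adjusted p = 4.68e-05). YAP1, the Hippo pathway coactivator, rose 1.53-fold (0.62 ± 0.07, limma adjusted p = 0.00117). The mitochondrial methyltransferase genes TFB1M and TFB2M differed in direction, at -0.85 ± 0.09 (limma adjusted p = 7.83e-04) and 0.43 ± 0.09 (limma adjusted p = 0.00955). The TFB2M call did not hold with an array left out (adjusted p = 0.0609 to 0.101) or with the replicate number as a block (adjusted p = 0.0516). Rises numbered 1 with that block and without CDK8 siRNA replicate 1 or either control array.

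**Figure D4:**
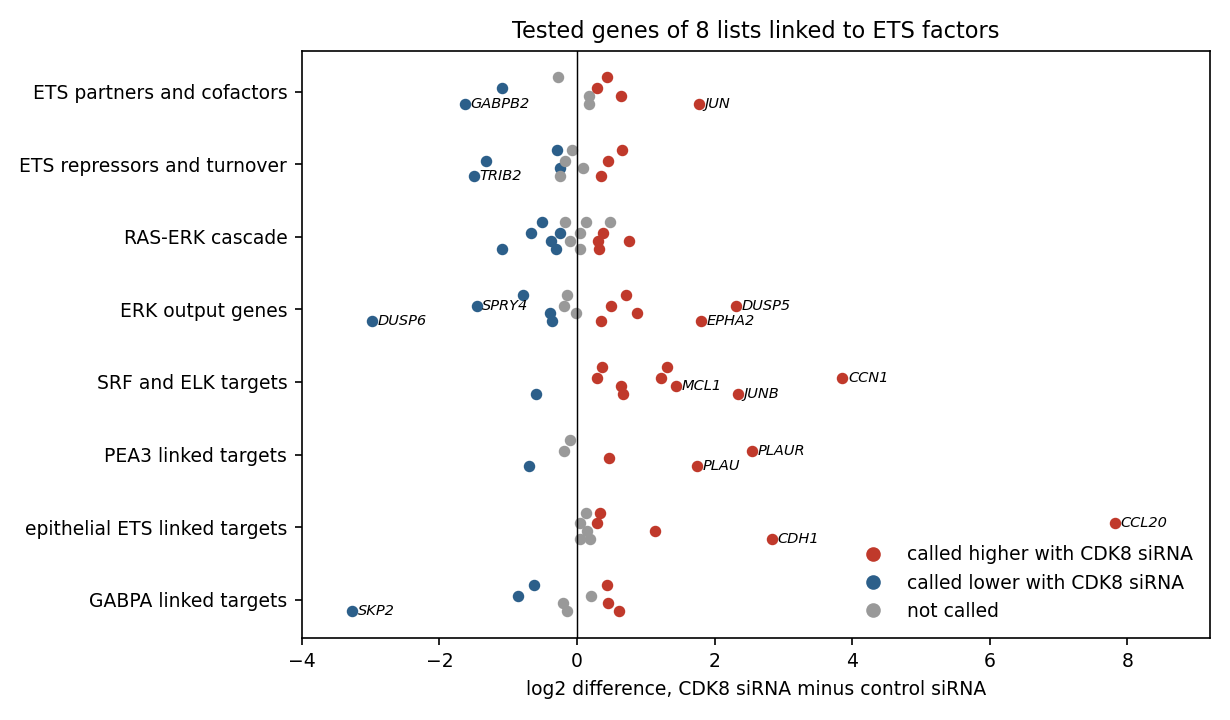
Log2 difference (CDK8 siRNA minus control siRNA) of each tested gene in 8 lists linked to ETS factors, red where called higher, blue where called lower and grey where not called, with vertical offsets only to separate points and names for differences beyond 1.4. The serum response factor and ELK list has 9 of 10 points in red, while the ERK output list spreads from DUSP6 at -2.99 to DUSP5 at 2.32.

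The genes closest to ETV1 over the 4 arrays, by root mean square distance after each gene's own mean was subtracted, were PAK2, SKP2, GPD2 and KITLG, at distances of 0.124 to 0.140 (log2). PAK2, a p21-activated kinase, had 7.39 and 7.42 with CDK8 siRNA and 10.74 and 10.82 with control siRNA. GPD2, a mitochondrial dehydrogenase, had 8.01 and 7.87 with CDK8 siRNA and 11.19 on either control siRNA array. KITLG, the ligand of KIT, had 13.11 and 13.32 with CDK8 siRNA and 16.60 and 16.73 with control siRNA. For ELF3 the closest were FAM219A, CDK6, HYCC2 and EPS15, at 0.0192 to 0.0335. CDK6, a G1 kinase, had 10.72 and 10.67 with CDK8 siRNA and 9.63 and 9.39 with control siRNA. With 4 arrays in 2 groups, this likeness mostly ranks genes by the size of the group difference.

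Promoter letters were then set against the calls of the genes that carry them. Of the tested genes 10008 had a RefSeq promoter window, of which 22.7% were called higher and 29.6% lower. The ETS letters CCGGAAG, on either strand, were in 10.3% of windows. They were in no window of the 7 members found in the table, and ETV3L, ELK4 and GABPA held them among the other family genes. Of the 2138 tested genes with CCGGAAG 22.9% were called higher and 32.0% lower, and their median difference was -0.05, beside -0.03 over the 10008. Those shares lie near the background. Of 85 tested genes with TGAATGGA, ETV1 among them, 28.2% were called higher and 36.5% lower, and of 173 with TGAATGAA 25.4% and 35.3%. The AP-1 letters TGANTCA were in 7.71% of windows, in no member window and in ELF4 among the other family genes. Of the 717 tested genes that held them 31.7% were called higher and 23.8% lower, with a median of 0.07. The CArG box of serum response factor was in 1.29% of windows and in no family window, and 24.7% of the 150 tested genes with it were called higher and 28% lower. For the κB motif the shares were 25.0% and 28.1% of 879 genes.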

How the data were processed

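Biotin-labelled cDNA from total RNA was read on 4 Affymetrix arrays, according to the labels' protocols. The deposited values are log2 signals, which the submitters' processing notes credit to Expression Console with RMA. For its version, settings and genome build nothing is given in the sources used here. RMA equalises the arrays and compresses differences at low signal, no detection calls were used, and the number of arrays limits the precision.

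Of 70523 rows 67528 were transcript clusters, and 23781 carried 1 gene symbol in the platform annotation, 1543 several and 42204 none. Symbols were updated through RefSeq (GRCh38.p14), where 23777 matched and 306 changed. The brightest cluster stood for each of 22411 genes, and 13956 with a mean of at least 4.28, the median of all clusters, were tested. limma 3.58.1 in R 4.3.3 (lmFit, eBayes, no covariates) compared the groups, with Benjamini-Hochberg adjustment over all tested genes and a threshold of 0.05. A call means an adjusted p under it. The median SE was 0.0832. The fit was tested on simulated data.

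The members and the gene lists were chosen with earlier results of these data known. Named genes are the members, the other family genes, CDK8, up to 4 genes of each list with the smallest p, and the 4 genes nearest ETV1 and ELF3; others are given as outside the rule. Promoter windows were searched on both strands for the motifs named in the text, the κB motif being added after the promoters had been read. Alternatives covered the filter, normalization, variance model, cluster choice, threshold, replicate block and each array left out. Figures used matplotlib 3.10.9.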

Additional observations from a re-analysis of the deposited data

How the results depend on the processing

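Every member kept the sign of its difference under the 12 alternatives to the fit (11 for ETV4 and ETS1, which lie under the stricter filter at 6.17). ETV1 ranged from -3.36 to -3.13, ELF3 from 1.02 to 1.26 and ETV5 from -0.16 to -0.04. Centring the arrays on their medians moved ETV5 to -0.16, ETV6 to -0.33, ETS2 to -0.45 and ELK1 to -0.71, beyond the spread of their replicates. With centred arrays 6 members and 8 family genes were called lower, against 5 and 7 in the main fit. With 1 array left out the counts over all tested genes ranged from 1377 to 2097 higher and from 1745 to 2414 lower, and those of the ETS family from 2 to 4 higher and from 3 to 4 lower. An arm with 1 array is assumed there to vary like the other group. A call lost with an array left out can reflect the smaller number of arrays as well as a changed difference. Beside the members, 48 genes were followed: the tested family genes, the list genes with the smallest p, CDK8 and CDK19. Genes named only as nearest to ETV1 or ELF3, or outside the rule, were not. Of the 48, 43 were called, which largely follows from naming genes by the smallest p. The call was kept by 30 under each alternative that gave them a value and lost by 13 under at least 1, and 0 reversed. All 12 alternatives gave a value for 37 of the 48, and the others had 11 or, for DET1, 10. The replicate numbers are shared by the groups but name no common culture. Deviations of same-numbered arrays correlated at 0.12 across genes, and with 2 pairs this does not show pairing. With the replicate block, ETS family genes called numbered 3 higher and 5 lower. Low signal limits what can be seen for the 9 family genes under the filter.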
